A study of Rattus norvegicus with 19 samples.

Results

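Voltage-gated sodium channels open when the membrane depolarizes and carry the inward sodium current of the rapid upstroke of the action potential in heart muscle, skeletal muscle and neurons. Each channel has a large alpha subunit, which forms the pore, and smaller beta subunits, which modify its gating and its place in the membrane. Different alpha subunits prevail in neurons, skeletal muscle and heart muscle. The 7 genes described here are subunits of this family, 7 of the 17455 genes in the count files: the alpha subunits Scn1a, Scn3a, Scn4a and Scn7a and the beta subunits Scn2b, Scn3b and Scn4b. They were chosen by name with measured values in view, since Scn1a had been selected on its higher counts in every drug arm than in untreated rats. Those 3 contrasts are therefore given as a description, and nothing is concluded from them.

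RNA of the left ventricle was sequenced from 19 Sprague-Dawley rats, 1 library per heart, from animals 24 weeks old at the start. Heart failure with preserved ejection fraction (HFpEF) was induced for 5 weeks with L-NAME, which blocks nitric oxide synthesis, at 0.5 g/L of the water drunk, and with a diet giving 60% of kilocalories as fat. The groups sampled at week 5 were control 5w, healthy rats fed normal chow without L-NAME, and HFpEF, with 3 libraries each. Rats given the same L-NAME and diet were then gavaged daily for 4 weeks and sampled at week 9. They received phosphate-buffered saline alone (untreated, n = 3), the SGLT2 inhibitor empagliflozin at 0.35 g/kg (EMPA, n = 2), the antifibrotic pirfenidone at 0.3 g/kg (PFD, n = 2) or both drugs at these doses (EMPA + PFD, n = 3). Control 9w (n = 3), on normal chow without L-NAME, is the control of the same week. The authors excluded 1 EMPA and 1 PFD sample because their files were corrupted. Total counts per library ran from 7430539 to 13017754, with a median of 9951011. Levels are CPM, counts scaled to library size with TMM factors that adjust for differences in composition, and errors of group means are SD. SE is the standard error of a log2 fold change.

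Several libraries stood apart from their labels or their group. All rats are labelled male, yet the Y-linked Eif2s3y had 0 counts in HFpEF replicates 1 and 3, the 3 untreated libraries and both PFD libraries, and 613 to 1321 counts in the other 12. RT1-CE16, a major histocompatibility gene, had at most 3 counts in every control 5w, HFpEF and EMPA library and 308 to 922 counts in the other 11. Untreated and control 9w thus differed in Eif2s3y in every library, and the effect of disease at week 9 and this difference cannot be told apart. The same holds for EMPA and EMPA + PFD against untreated and for PFD against control 9w. RT1-CE16 differed in every library between control 9w and control 5w, untreated and HFpEF, and EMPA and either untreated or control 9w. In these contrasts the effect of week or drug and this difference cannot be told apart. All EMPA + PFD and control 9w libraries had counts of both genes, at 97.6 to 108 and 73.8 to 75.4 CPM for Eif2s3y and 36.8 to 75.2 and 91.0 to 104 CPM for RT1-CE16.

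Marker genes of cell types also differed between libraries of one group. The summed CPM of 9 ventricular cardiomyocyte markers, of which Myh6 had the highest mean CPM over the 19 libraries and the highest CPM in 10 of them and none was at 0, was 89859 in control 5w replicate 1 against 36980 and 41557 in replicates 2 and 3. It was 11467, 22088 and 34253 in HFpEF, 36843, 42240 and 40511 in control 9w, 70879, 19728 and 56774 in untreated, 45626 and 34676 in EMPA, 66425 and 74599 in PFD, and 70504, 103510 and 85857 in EMPA + PFD. The defining markers of the labelled tissue were therefore present in every library, with the lowest sums in HFpEF replicate 1 and untreated replicate 2. The sum of 7 atrial markers, with the highest mean CPM for Nppa, reached 23392 in control 9w replicate 3 and 14898 in untreated replicate 2, against 69.3 in untreated replicate 1. In bulk tissue, fewer cells of a type and less RNA per cell cannot be told apart.

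Scn1a encodes an alpha subunit best known from inhibitory neurons of the brain. Its level was 25.6, 20.0 and 24.5 CPM in control 5w and 6.32, 12.6 and 12.5 CPM in HFpEF. Control 9w had 15.2, 17.6 and 12.7 CPM, and untreated had 7.70, 6.82 and 9.06 CPM. In the drug arms it was 34.5 and 37.7 CPM in EMPA, 39.9 and 26.5 CPM in PFD, and 28.4, 33.5 and 21.0 CPM in EMPA + PFD. The 3 HFpEF libraries were all below the control 5w libraries, the 3 untreated libraries were all below the control 9w libraries, and every drug library was above every untreated and control 9w library. These values rest on 73 to 364 counts per library.

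**Figure D1:**
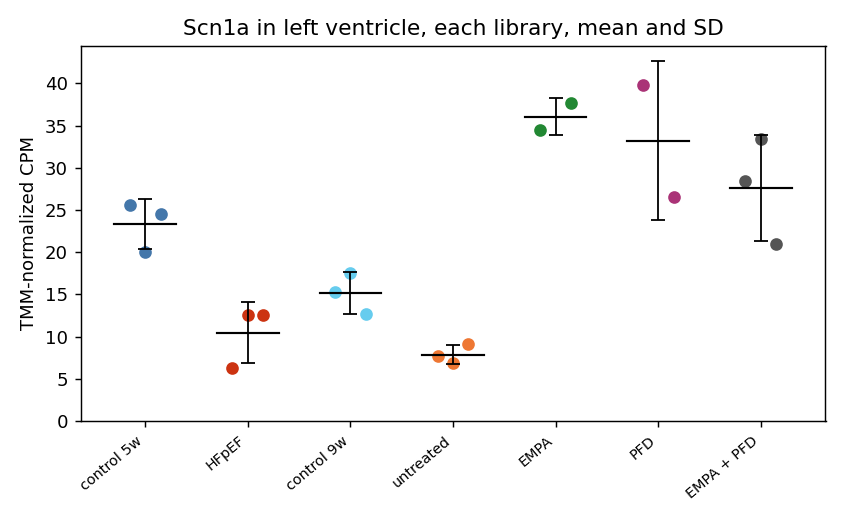
Scn1a in each of the 19 libraries, as TMM-normalized CPM on a linear axis by group; points are libraries, horizontal lines are group means and error bars are SD. The 3 untreated libraries lie between 6.82 and 9.06 CPM and the 7 libraries of drug-treated rats between 21.0 and 39.9 CPM.

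Ordered by mean level, Scn1a was highest in EMPA (36.1 ± 2.24 CPM, n = 2), followed by PFD (33.2 ± 9.43, n = 2), EMPA + PFD (27.6 ± 6.27, n = 3), control 5w (23.4 ± 2.97, n = 3), control 9w (15.2 ± 2.46, n = 3), HFpEF (10.5 ± 3.59, n = 3) and untreated (7.86 ± 1.13, n = 3). Neighbours in this order overlapped in their libraries, except that control 5w lay above control 9w and control 9w above HFpEF. Groups further apart in the order did not all overlap: both EMPA libraries lay above those of EMPA + PFD and control 5w, and both PFD libraries above those of control 5w.

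As a description of the contrasts by which Scn1a was chosen, its log2 fold change against untreated was 2.20 in EMPA (SE 0.28), 2.08 in PFD (0.28) and 1.81 in EMPA + PFD (0.26). The 3 contrasts share the untreated libraries. A gene is counted as called below when its Benjamini-Hochberg adjusted p over all 12388 tested genes is under 0.05 and its absolute log2 fold change is at least 1 in edgeR's quasi-likelihood test. By this count 1 of 7 subunits, Scn1a, was called in each of the 3 contrasts, beside 0.0404% of all tested genes in EMPA, 0.00807% in PFD and 3.82% in EMPA + PFD. These shares include Scn1a, which in PFD was the only gene called. Since these contrasts chose the gene, nothing is read from the counts. The call was lost in all 3 contrasts with only the libraries compared, and in EMPA and PFD with a replicate block. With EMPA and PFD kept whole, the call in PFD was also lost without control 5w replicate 3, control 9w replicate 1, any 1 untreated library or EMPA + PFD replicate 1. With Eif2s3y presence as a term in the model, the fold changes were 1.78 in EMPA and 1.39 in EMPA + PFD, neither of them called. Only HFpEF had libraries both with and without Eif2s3y counts, so the term was estimated from HFpEF alone. In these contrasts it cannot separate the difference in Eif2s3y from treatment. With 1 library left out, the range was 2.10 to 2.31 in EMPA and 1.75 to 2.34 in PFD. That of EMPA + PFD was 1.67 to 2.00.

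The comparison of HFpEF with control 5w, which asks what differs once the disease is established, compares none of those libraries, though they share in the estimate of spread. Scn1a fell by 1.16 on the log2 scale (SE 0.25, adjusted p = 0.00787), with 3 of 3 HFpEF libraries below all control 5w libraries. It was the only subunit of the 7 called, beside 8.69% of all tested genes, and the median log2 fold change of the 7 was −0.40 against 0.02 over all tested genes. The call was lost with only the libraries compared (−1.15, adjusted p = 0.0729), with Eif2s3y presence as a term (−0.90, 0.123), and without HFpEF replicate 1 (−0.90, 0.0200), where the fold was short of the minimum. With only the HFpEF library that had counts of Eif2s3y, replicate 2, the fold change was −0.90. All control 5w libraries had such counts, so the fit with the Eif2s3y term rests on that same library and is no separate check. Adjusted p ran from 0.000270 to 0.123 over the alternative analyses. Scn7a joined Scn1a without HFpEF replicate 2 (2 called, beside 6.72% of all tested genes), and Scn7a and Scn4b without untreated replicate 2 (3 called, beside 9.95%). HFpEF replicate 1 also had the lowest cardiomyocyte marker sum, and the part of that in the result was not tested.

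Against control 5w, control 9w had a Scn1a log2 fold change of −0.63 (SE 0.25, adjusted p = 0.0635), with the 3 libraries below those of control 5w but no call. In the remaining contrasts Scn1a is a description only, because they use untreated or drug-treated libraries. Its log2 fold change was −0.95 (SE 0.26) in untreated against control 9w, and −0.41 (0.26) in untreated against HFpEF. It was 1.25 (0.27) in EMPA, 1.13 (0.27) in PFD and 0.87 (0.25) in EMPA + PFD, each against control 9w. Every drug library was thus above every control 9w library in Scn1a.

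Scn3a encodes an alpha subunit that is abundant in the developing nervous system. It had 6.97, 4.58 and 5.33 CPM in control 5w and 11.6, 6.69 and 6.97 CPM in HFpEF. It had 9.59, 12.5 and 8.48 CPM in control 9w and 7.81, 5.12 and 5.90 CPM in untreated. At week 5 the disease group overlapped its control and at week 9 it lay wholly below it. The drug arms had 6.26 and 6.56 CPM (EMPA), 4.60 and 5.86 CPM (PFD) and 5.68, 5.98 and 7.31 CPM (EMPA + PFD), all below the control 9w libraries and within or near the range of untreated.

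At week 9 disease cannot be told apart from the difference in Eif2s3y. In edgeR's interaction test, the disease effect on Scn3a differed between the weeks. Its log2 fold change was 0.59 in HFpEF against control 5w (SE 0.25, adjusted p = 0.110) and −0.70 in untreated against control 9w (0.25, adjusted p = 0.155), neither of them called, and the first was 0.28 without HFpEF replicate 1. The difference between these effects, tested as an interaction, was −1.29 (0.36, adjusted p = 0.0223). Scn3a was the 1 subunit called in this interaction of the 6 other than Scn1a, beside 12% of all tested genes, and the median of the 6 was 0.49 against −0.02 over all tested genes. In the same test Scn4b had 2.19 (0.78, adjusted p = 0.0603) and Scn7a −1.82 (0.95, adjusted p = 0.184). The call of Scn3a was lost without HFpEF replicate 1 (−0.98, adjusted p = 0.0533), control 5w replicate 2 (−1.16, 0.0517), control 9w replicate 2 (−1.12, 0.0633) or untreated replicate 3 (−1.25, 0.0509). It was also lost with only the libraries compared (−1.28, adjusted p = 0.0560), and the value was −0.95 without HFpEF replicates 1 and 3. With 1 library left out, the adjusted p of Scn3a ran from 0.0184 to 0.0633. Without untreated replicate 2, Scn4b was called at 2.69 (adjusted p = 0.00180; 0.00180 to 0.232 over the alternatives) and Scn7a at −2.93 (0.0211; 0.000132 to 0.817), beside 18.2% of all tested genes. Scn4b was 1.45 without untreated replicate 1 (adjusted p = 0.206) and Scn7a −0.66 without HFpEF replicate 1 (0.604).

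The control hearts themselves differed in Scn3a between weeks, with a log2 fold change of 0.86 in control 9w against control 5w (SE 0.25, adjusted p = 0.0182), below the minimum fold and so not called. Without control 5w replicate 1 it was called at 1.05 (adjusted p = 0.0119; 7.67e-06 to 0.0898 over the alternatives). Against control 9w it was −0.67 in EMPA (0.29, adjusted p = 0.321), −0.96 in PFD (0.29, adjusted p = 0.0837) and −0.69 in EMPA + PFD (0.26, adjusted p = 0.0506), and none was called. These comparisons share the control 9w libraries.

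Scn4a, the alpha subunit of adult skeletal muscle, was low throughout, with 21 to 47 counts and 1.94 to 5.59 CPM per library. Its group means ran from 2.24 ± 0.33 CPM in HFpEF to 5.17 ± 0.61 CPM in EMPA, and neighbours in that order overlapped apart from untreated, whose lowest library was 3.693 CPM, and control 9w, whose highest was 3.690 CPM. Untreated against HFpEF gave the lowest adjusted p of the gene, with a log2 fold change of 0.89 (SE 0.27, adjusted p = 0.102), and control 9w against control 5w gave 0.59 (0.27, adjusted p = 0.102). Markers of skeletal muscle, 9 genes with the highest mean CPM for Tnnt3, summed to between 21.9 and 103 CPM, and Myod1, which defines the lineage, had 0 counts in 18 of 19 libraries.

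Scn7a encodes an atypical alpha subunit that senses extracellular sodium and is found in glia, Schwann cells among them. It had 150, 54.5 and 61.4 CPM in control 5w, 674, 118 and 168 CPM in HFpEF, 356, 159 and 277 CPM in control 9w, and 145, 561 and 107 CPM in untreated. EMPA had 205 and 210 CPM, PFD 108 and 175 CPM, and EMPA + PFD 180, 110 and 162 CPM. HFpEF replicate 1 and untreated replicate 2 were far above the other libraries of their groups, so that the SD of HFpEF (307) was close to its mean (320). The other groups stayed between 54.5 and 356 CPM.

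In edgeR's test Scn7a was called in none of the 8 contrasts other than those of the drug arms with untreated; its unadjusted p was under 0.05 in 2 of them, and DESeq2 called it in 2 and voom in 6. Its log2 fold change was 1.86 in HFpEF against control 5w (SE 0.69, adjusted p = 0.0677) and 1.58 in control 9w against control 5w (0.68, adjusted p = 0.0844). Without HFpEF replicate 1 the first was 0.70 (adjusted p = 0.460), and it was called without HFpEF replicate 2 (2.25, adjusted p = 0.0481) and without untreated replicate 2 (1.86, adjusted p = 0.0296). The second was called when control 5w replicate 1 (2.20, adjusted p = 0.0420), HFpEF replicate 1 (1.58, 0.0392) or untreated replicate 2 (1.58, 0.0407) was left out. Adjusted p over the alternatives ran from 0.00277 to 0.786 for HFpEF and from 8.22e-07 to 0.227 for control 9w. Untreated against control 9w gave 0.04 (0.66, adjusted p = 0.986), and without untreated replicate 2 this turned to −1.07, and without control 9w replicate 2 to −0.23. Voom called Scn7a lower there (−1.41, adjusted p = 0.00234), and with Eif2s3y presence as a term the value was −1.80. That term was estimated from the HFpEF libraries alone.

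The libraries high in Scn7a were also high in Schwann cell markers. The 8 markers, with the highest mean CPM for Prx and none at 0 counts in any library, summed to 377 CPM in HFpEF replicate 1 and 139 CPM in untreated replicate 2. They summed to 56.8 and 81.9 CPM in the other HFpEF libraries, 55.1 and 50.5 CPM in the other untreated libraries, and 54.5, 40.3 and 41.5 CPM in control 5w. Control 9w had 99.3, 53.1 and 103 CPM, EMPA 62.3 and 203 CPM, PFD 32.4 and 51.5 CPM, and EMPA + PFD 46.9, 41.1 and 44.9 CPM. Over the 19 libraries the log2 level of Scn7a had a Pearson r of 0.82 with this sum (Spearman rho 0.821). EMPA replicate 2 departed from the relation, with the second highest Schwann cell sum and 210 CPM of Scn7a. The part of Schwann cell content in the Scn7a values was not tested.

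The beta subunit Scn4b, which modulates the cardiac sodium current, had 77.5, 59.8 and 44.3 CPM in control 5w, 14.2, 30.4 and 27.0 CPM in HFpEF, and 65.5, 55.8 and 49.3 CPM in control 9w. Untreated had 184, 17.9 and 105 CPM, EMPA 72.0 and 60.9 CPM, PFD 70.7 and 159 CPM, and EMPA + PFD 165, 206 and 242 CPM. The HFpEF libraries lay below those of both controls and the EMPA + PFD libraries above them. Untreated spanned 17.9 to 184 CPM, within a range of 14.2 to 242 CPM over all libraries.

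Scn4b rose in EMPA + PFD against control 9w by a log2 fold change of 1.85 (SE 0.56, adjusted p = 0.0211), in 3 of 3 libraries, where both groups had counts of Eif2s3y and of RT1-CE16. It was the 1 subunit called of the 6 other than Scn1a, beside 12.1% of all tested genes, and the median log2 fold change of the 6 was 0.10 against −0.08 over all tested genes. The adjusted p passed 0.05 without control 9w replicate 1 (1.96, adjusted p = 0.0508), replicate 2 (1.83, 0.0668) or replicate 3 (1.75, 0.0620), and without EMPA + PFD replicate 2 (1.85, 0.0507) or replicate 3 (1.72, 0.0543), and it ran from 0.000393 to 0.0668 over the alternatives.

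At disease onset Scn4b had a log2 fold change of −1.35 in HFpEF against control 5w (SE 0.56, adjusted p = 0.0989), and it was called without untreated replicate 2 (−1.35, adjusted p = 0.0121; 0.0121 to 0.457 over the alternatives). In untreated against HFpEF, which also differ in week, the value was 2.10 (0.57, adjusted p = 0.0814), 1.36 without untreated replicate 1 (adjusted p = 0.353) and 2.60 without untreated replicate 2 (adjusted p = 0.00482; 0.00265 to 0.534 over the alternatives). Untreated against control 9w gave 0.84 (0.55, adjusted p = 0.445), 1.34 without that library (adjusted p = 0.0387) and 0.10 without untreated replicate 1 (0.972), with adjusted p from 0.0241 to 0.972 over the alternatives. Over the 19 libraries Scn4b had a Pearson r of 0.91 with the sum of the ventricular cardiomyocyte markers (Spearman rho 0.902), and the mean sum was highest in EMPA + PFD (86624), with the lowest libraries HFpEF replicate 1 and untreated replicate 2. The part of cardiomyocyte content in the Scn4b values was not tested. For Scn1a the same r was 0.58.

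**Figure D2:**
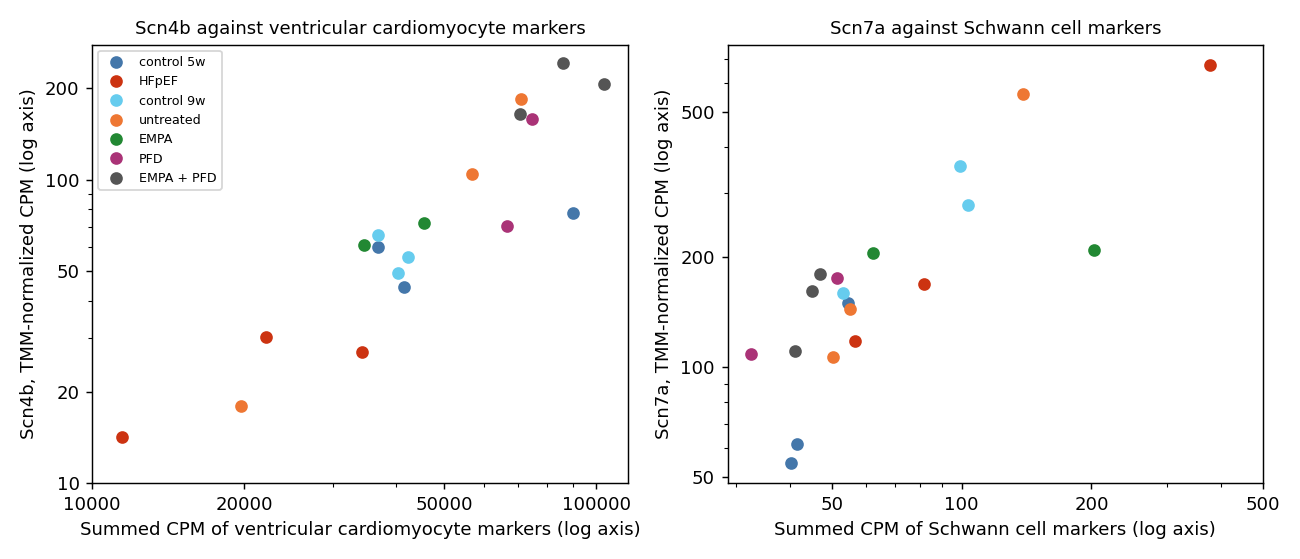
Left, Scn4b in TMM-normalized CPM against the summed CPM of 9 ventricular cardiomyocyte markers; right, Scn7a against the summed CPM of 8 Schwann cell markers. Both axes are logarithmic, each point is 1 of 19 libraries and colours are groups. HFpEF replicate 1 is lowest at left (14.2 CPM) and highest at right (674 CPM).

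Scn3b is a beta subunit of heart and brain. It had 6.60, 34.1 and 34.3 CPM in control 5w, 20.5, 6.69 and 20.2 CPM in HFpEF, 8.69, 12.9 and 9.27 CPM in control 9w, and 10.4, 6.58 and 17.5 CPM in untreated. In EMPA it had 19.04 and 49.1 CPM, in PFD 36.7 and 14.4 CPM, and in EMPA + PFD 9.22, 19.8 and 15.9 CPM. Both EMPA and both PFD libraries were above the control 9w libraries, with log2 fold changes of 1.73 (SE 0.67, adjusted p = 0.257) and 1.31 (0.67, adjusted p = 0.241) that were not called. The first was 0.89 without EMPA replicate 2. The second was 0.48 without PFD replicate 1 and turned to −0.29 with Eif2s3y presence as a term, estimated from HFpEF alone. Against control 5w, HFpEF gave −0.66 (0.59, adjusted p = 0.442), and from −1.90 to −0.30 over the alternatives. Control 9w against control 5w gave −1.29 (0.61, adjusted p = 0.115), and Scn3b was called there without control 5w replicate 1 (−1.72, adjusted p = 0.0246). Its adjusted p in that contrast ran from 0.000168 to 0.293 over the alternatives.

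Scn2b, a beta subunit that binds covalently to the alpha subunit, was near the limit of detection, with 0 to 40 counts. It had 0 counts in 2 libraries and at most 3 in 6. The floor of 3 counts was 0.215 to 0.400 CPM, depending on depth, and covers counting error only. The highest group means were in control 5w (libraries at 0.377, 3.10 and 1.67 CPM) and HFpEF (2.51, 0.550 and 0.804 CPM). The mean of every group sampled at week 9 was at most 0.535 CPM, though single libraries there reached 0.897 CPM. The log2 fold change of control 9w against control 5w was −1.98 (SE 0.97, adjusted p = 0.125), and it was −1.25 without control 5w replicate 2 and −3.22 without control 9w replicate 3. In that contrast voom called Scn2b (−2.39, adjusted p = 0.000575) and DESeq2 did not, and adjusted p ran from 0.000575 to 0.407 over the alternatives. Fibroblast markers, 8 genes of which Col3a1 had the highest mean CPM, though Gsn was highest in 14 of 19 libraries, and none at 0, summed to 7628, 42374 and 34654 CPM in control 5w, 16343 to 19201 CPM in HFpEF and 3734 to 14798 CPM at week 9. Scn2b had a Pearson r of 0.81 with that sum over the 19 libraries, and the part of it in these values was not tested.

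**Figure D3:**
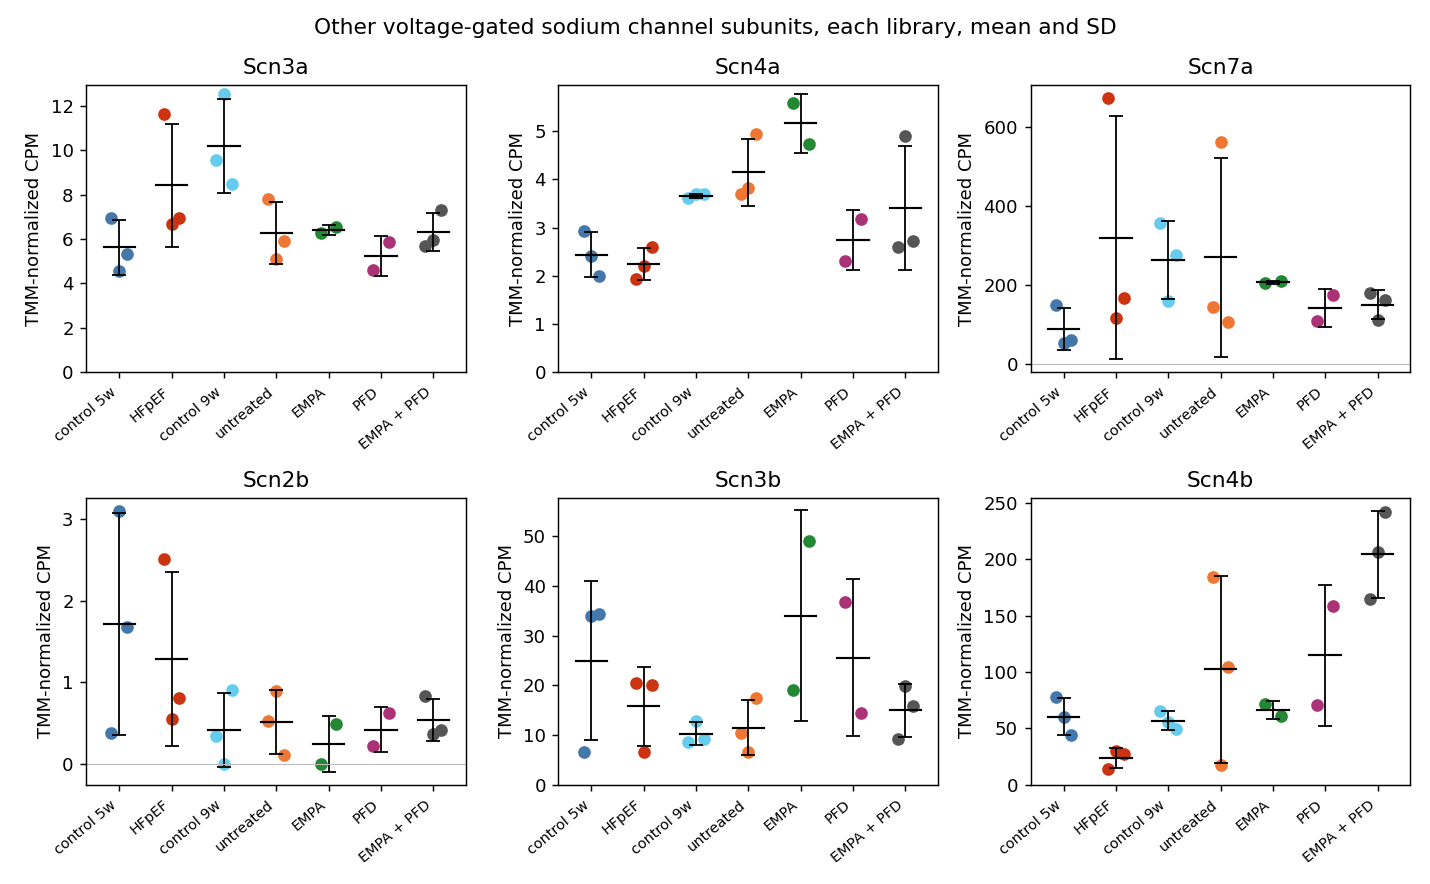
The 6 other subunits in each of the 19 libraries, as TMM-normalized CPM on linear axes by group, with a scale for each gene; points are libraries, horizontal lines group means and error bars SD. Scn7a is highest in HFpEF replicate 1 (674 CPM) and untreated replicate 2 (561 CPM), and the 3 EMPA + PFD libraries of Scn4b lie between 165 and 242 CPM.

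In the remaining contrasts edgeR called 0 of the 6 subunits other than Scn1a. In control 9w against control 5w, 3 of the 6 had an unadjusted p under 0.05, and DESeq2 called 1 and voom 3. Of all tested genes, edgeR called 14.7% there, 45.4% had such a p, and DESeq2 and voom called 15.8% and 21.9%. For untreated against control 9w (0.912% of all tested genes in edgeR) these counts were 1, 0 and 1, beside 18.2%, 2.41% and 8.37% of all, and for untreated against HFpEF (0.194%) they were 2, 1 and 1, beside 22.7%, 3.63% and 8.69%. For EMPA against control 9w (0.46%) they were 2, 0 and 1, beside 14.3%, 1.64% and 3.28%, and for PFD against control 9w (0.783%) they were 1, 0 and 2, beside 24.3%, 3.83% and 8.29%. Without control 5w replicate 1 the count in control 9w against control 5w was 3 (Scn3a, Scn7a and Scn3b), beside 16.4% of all tested genes, and without HFpEF replicate 1 or untreated replicate 2 it was 1 (Scn7a), beside 15.4% and 15.5%. Without untreated replicate 2 it was 1 (Scn4b) in untreated against control 9w and against HFpEF, where 3.35% and 7.56% of all tested genes were then called. The median log2 fold change of the 6 in these 5 contrasts was 0.25, 0.17, −0.34, −0.06 and −0.22, beside −0.04, 0.01, −0.01, 0.01 and −0.03 over all tested genes.

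Of a list of other alpha subunits, 5 of 6 were in the files and 3 were tested. Scn2a, Scn8a and Scn9a, found mainly in neurons, stayed below 7 CPM in every library. edgeR called 0 of the 3 in every contrast tested, beside 0.00807% to 14.7% of all tested genes. DESeq2 also called 0, beside 0.0323% to 15.8%. At most 1 had an unadjusted p under 0.05, in EMPA and EMPA + PFD against control 9w (14.3% and 44.4% of all tested genes). Voom called 1 in control 9w against control 5w, untreated against control 9w, EMPA + PFD against control 9w and the interaction. There it called 21.9%, 8.37%, 15.8% and 20.7% of all tested genes. Scn10a and Scn11a, pores of sensory neurons, had at most 9 and 3 counts and were not tested.

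Genes whose proteins bind, anchor or regulate cardiac sodium channels are here called partners. Of 20 tested, 8 were called lower and 0 higher in HFpEF against control 5w (median log2 fold change −0.62), beside 8.69% of all tested genes called in either direction. The largest falls were those of Kcnj2, an inward rectifier potassium channel that travels with the sodium channel (−1.88, adjusted p = 0.00147), and Gpd1l, which affects channel delivery to the membrane (−1.75, adjusted p = 0.000302). In control 9w against control 5w 4 of 20 (20%) were called lower and 0 higher (median −0.48), beside 14.7% of all tested genes, led by Gpd1l (−1.96, adjusted p = 7.32e-05) and Slmap, a membrane protein (−1.34, adjusted p = 0.00439). In EMPA + PFD against control 9w 7 were called higher and 0 lower (median 0.58), beside 12.1% of all tested genes, led by Gpd1l (1.95, adjusted p = 0.000276) and Slmap (1.59, adjusted p = 0.00208). DESeq2 and voom called 8 and 5 of the 20 in the first of these contrasts, 4 and 4 in the second and 7 and 9 in the last, beside 10.3% and 11%, 15.8% and 21.9%, and 13.1% and 15.8% of all tested genes. For untreated against control 9w edgeR called 0 of 20, with 3 at an unadjusted p under 0.05 and 0 by DESeq2 and 1 by voom, beside 18.2%, 2.41% and 8.37% of all tested genes. The 9 ventricular cardiomyocyte markers moved with the partners, with a median of −1.24 and 3 called lower in HFpEF against control 5w, −0.49 and 1 lower in control 9w against control 5w, and 1.34 and 4 higher in EMPA + PFD against control 9w. Markers of other cells moved as well and are given with the regulators below. The part of either in the counts of partners was not tested.

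Of 11 tested transcription regulators of cardiac channel genes, 6 were called lower and 0 higher in HFpEF against control 5w (median log2 fold change −1.01), beside 8.69% of all tested genes and a median of −1.24 for the cardiomyocyte markers. Irx5 and Tbx5, factors of ventricular conduction and patterning, had the largest falls (−2.47, adjusted p = 0.00744, and −2.14, adjusted p = 0.0437). Irx5 lost its call with Eif2s3y presence as a term (−2.18, adjusted p = 0.0990). Without HFpEF replicates 1 and 3, which in this contrast rests on the same HFpEF library, its fold change was −2.18. Its adjusted p ran from 6.84e-05 to 0.0990 over the other alternatives. Tbx5 lost its call without any 1 library of control 5w (−1.93, −2.23 and −2.23 without replicates 1, 2 and 3), HFpEF (−1.97, −2.19 and −2.27) or EMPA (−2.14 each), control 9w replicate 1 (−2.14), either PFD library (−2.14 each) or EMPA + PFD replicate 3 (−2.14). It was lost as well with a replicate block (−2.18, adjusted p = 0.0606) and with Eif2s3y presence as a term (−2.04, 0.244). Without HFpEF replicates 1 and 3, which again rests on that library, the fold change was −2.05. The adjusted p of Tbx5 ran from 0.00789 to 0.244 over the other alternatives. In control 9w against control 5w, beside 14.7% of all tested genes, 5 were lower and 1 higher: Tbx3, a repressor of working myocardial genes, rose by 2.38 (adjusted p = 0.000611), and Irx5 (−2.17, adjusted p = 0.00636) and Irx3 (−1.67, adjusted p = 0.0109) had the largest falls. In EMPA + PFD against control 9w, beside 12.1% of all tested genes and a median of 1.34 for the cardiomyocyte markers, 3 were higher and 2 lower, with Tbx20 at 2.07 (adjusted p = 0.00915), Nkx2-5 at 1.17 (adjusted p = 0.0190), Tbx3 at −1.76 (adjusted p = 0.00338) and Snai1 at −1.25 (adjusted p = 0.0273). The call of Tbx20 was lost without EMPA + PFD replicate 2 (1.58). That of Nkx2-5 was lost without that library (1.07) or control 9w replicate 1 (1.00) or 2 (1.11), and that of Snai1 without control 9w replicate 1, 2 or 3 (−1.21, −1.30 and −1.25) or EMPA + PFD replicate 2 or 3 (−1.14 and −1.23). Adjusted p reached 0.0529, 0.0793 and 0.0990 in these analyses. In these 3 contrasts DESeq2 and voom called 6 and 3, 6 and 7, and 6 and 5 of the 11, beside the shares of all tested genes given for the partners. For untreated against control 9w the count was 0 of 11 in edgeR, with 4 at an unadjusted p under 0.05, 0 by DESeq2 and 2 by voom, beside 18.2%, 2.41% and 8.37% of all tested genes. In HFpEF against control 5w the markers of other cells had medians of 2.92 (adipocyte), 2.27 (Schwann cell), 0.71 (endothelial) and −1.57 (atrial). In control 9w against control 5w these were 3.18 (atrial), 1.23 (endothelial), −1.59 (fibroblast) and −1.65 (macrophage). In EMPA + PFD against control 9w they were −7.08 (atrial) and −1.09 (endothelial). The part of cell content in these counts was not tested.

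Of 6 tested genes of sodium exchange and pumping, 2 were called lower in HFpEF against control 5w: Slc8a1, the sodium-calcium exchanger (−1.68, adjusted p = 0.00217), and Atp1b1, a subunit of the sodium pump (−1.42, adjusted p = 0.0169), beside 8.69% of all tested genes and a median of −1.24 for the cardiomyocyte markers. With only the libraries compared Atp1b1 was not called (−1.43, adjusted p = 0.0783; 0.00140 to 0.0783 over the alternatives). Slc8a1 was also lower in control 9w against control 5w (−1.37, adjusted p = 0.00262). In EMPA + PFD against control 9w 2 were higher, Slc8a1 (1.50, adjusted p = 0.00197) and Atp1b1 (1.02, adjusted p = 0.0419), with a median of 0.64 over the 6, beside 12.1% of all tested genes and a median of 1.34 for the cardiomyocyte markers, whose part was not tested. Atp1b1 lost this call without control 5w replicate 2 or 3 (1.02 each), control 9w replicate 1 or 2 (0.98 and 0.80) or EMPA + PFD replicate 2 or 3 (0.95 and 0.96), with upper quartile normalization (0.95) and with no filter beyond 1 count (0.99), and its adjusted p ran from 0.000778 to 0.159 over the alternatives. Of the 6, DESeq2 and voom called 2 and 2, 1 and 2, and 3 and 3 in these contrasts, beside the same shares. For untreated against control 9w edgeR called 0 of the 6, with 1 at an unadjusted p under 0.05 and 0 by DESeq2 and by voom, beside 18.2%, 2.41% and 8.37% of all tested genes. Slc5a1 had at most 1 count and was not tested.

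By Pearson r over the 19 libraries on log2 CPM, the genes most like Scn1a were RGD1359634 (0.81), Asb18 (0.80), Mycbpap (0.79), Ppm1e (0.79) and Atp4a (0.79), and the least like it were Siglec5 (−0.86), Nup85 (−0.82) and Klf7 (−0.81). Of these 5 highest, 2 were among the 5 highest by Spearman rho, 3 without untreated replicate 2, and 0 over the 7 group means. The genes most like the others were Mtmr10 (0.80) and Sned1 (0.77) for Scn3a, Cul9 (0.85) and Gfra4 (0.81) for Scn4a, Ttyh1 (0.94) and L1cam (0.94) for Scn7a, Txndc5 (0.92) and Sec22b (0.92) for Scn2b, Mllt11 (0.93) and Map4 (0.90) for Scn3b, and Coq8a (0.95) and Eif4a2 (0.94) for Scn4b. Among the 7 subunits themselves, r with Scn1a ran from −0.46 for Scn7a to 0.47 for Scn4b. The libraries share group, week and depth, and these values are descriptions.

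Of the other cell type markers, 9 of 10 neuron genes were in the files, with the highest mean CPM for Prph and summing to 16.6 to 102 CPM, with Chat at 0 counts in 18 libraries, Stmn2 in 13, Elavl4 and Snap25 in 12 and Th in 7. Scn1a had an r of −0.24 with that sum. The 7 nodal and conduction genes, with the highest mean for Cacna1g, summed to 67.0 to 362 CPM, with Isl1 at 0 counts in 17 libraries. The sums ran from 1346 to 3599 CPM for 7 endothelial genes, with the highest mean for Vwf, from 1019 to 2986 CPM for 7 genes of smooth muscle and pericytes, with the highest mean for Abcc9, from 245 to 2816 CPM for 7 macrophage genes, with the highest mean for Lyz2, and from 541 to 3653 CPM for 5 adipocyte genes, with the highest mean for Fabp4, of which Cidec was at 0 counts in 10 libraries, Adipoq in 7, Plin1 in 5 and Lep in 2.

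In the rat assembly GRCr8, Scn1a, Scn9a and Scn7a are consecutive genes, Scn3a lies beside Scn2a on the same chromosome, and Scn2b and Scn4b are neighbours on another. Over the 19 libraries r was −0.37 between Scn2b and Scn4b. The alpha subunit genes are related in sequence, and counts of such genes, and of overlapping or antisense genes, are uncertain where the counting could split or merge them. Promoter entries were found for 5 of the 7 subunits, all but Scn1a and Scn3b. The 250 bases before the start of the gene are shown for Scn3a and Scn4b, the 2 called subunits with an entry, from RefSeq on GRCr8 and 5′ to 3′. Scn3a is at chr3:70666199-70666448 on the minus strand and Scn4b at chr8:54343623-54343872 on the plus strand.
Scn3a: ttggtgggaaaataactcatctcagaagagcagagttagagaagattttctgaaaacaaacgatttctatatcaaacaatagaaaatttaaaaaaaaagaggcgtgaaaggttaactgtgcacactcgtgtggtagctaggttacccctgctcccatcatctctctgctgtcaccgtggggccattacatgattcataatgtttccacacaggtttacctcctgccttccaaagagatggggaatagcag
Scn4b: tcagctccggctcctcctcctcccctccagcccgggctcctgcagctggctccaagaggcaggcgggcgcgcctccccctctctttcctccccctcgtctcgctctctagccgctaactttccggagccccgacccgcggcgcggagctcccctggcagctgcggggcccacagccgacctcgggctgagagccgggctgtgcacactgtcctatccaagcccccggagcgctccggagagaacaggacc
The G and C share was 41.6% for Scn3a and 71.6% for Scn4b, against a median of 51.2% over 33469 promoters of this length. Motifs for 3 of the regulator families above were searched on both strands: AGGTGTGA for T-box factors, AGATAAG for GATA factors and TTAAGTG for NK2 factors. They occur in 0.959%, 2.54% and 2.06% of all promoters, and none of these letters was found in the windows of the 5 subunits, so no base is in capitals.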

How the data were processed

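Left ventricular RNA of 19 rats was analysed in the groups given by the sample labels. The deposited values are whole counts per gene, which the authors made by trimming with Trim Galore, aligning to rn6 with HISAT2 and counting with htseq-count; how overlaps and strand were handled, and the version of the annotation, is not given in the sources used here. The authors made their own calls with DESeq2 in iDEP. A table of the whole series repeats values and was not used. Counts were analysed in R 4.3.3 with edgeR 4.0.16: TMM normalization, filterByExpr, which kept 12388 of 17455 genes and all 7 subunits, and quasi-likelihood F tests, fitted to all 7 groups at once so that they share an estimate of spread. Each of 11 contrasts was adjusted by Benjamini-Hochberg over all tested genes. SE is the absolute log2 fold change over the square root of F. The interaction is untreated minus control 9w, less HFpEF minus control 5w.

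Total counts of 7430539 to 13017754 per library set the precision, and a count of 3 is taken as the floor. Replicates are separate hearts. CPM are not adjusted for transcript length, which was not used here, and the gene named for each list of markers is the one with the highest mean CPM over the 19 libraries. The 7 subunits and the lists of partners, regulators, sodium transporters and cell type markers were chosen with earlier results of these data known, and some listed genes are not reported here and are in none of the list counts, sums and ranks. Genes named from the lists are, in each contrast described, up to 2 called genes that rose most and up to 2 that fell most. Called list genes of the drug contrasts with untreated are not named. Likeness is Pearson r on log2 CPM with a prior count of 2, over 11734 genes with a mean of at least 1 CPM. Alternatives were RLE and upper quartile normalization, other filters, DESeq2 1.42.0, limma 3.58.1 with voom and quality weights, only the libraries compared, the adjusted p alone, a replicate block, Eif2s3y presence as a term, and libraries left out. The Eif2s3y term was estimated from HFpEF alone, the only group with libraries both with and without counts of that gene. The test was run on simulated data first. Gene neighbours and promoters are from RefSeq, GRCr8, a build other than that of the counts.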

Additional observations from a re-analysis of the deposited data

Results flagged for a closer look

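The effect of disease differed between week 9 and week 5 by edgeR's interaction test, with Benjamini-Hochberg adjustment over all tested genes, for 1 subunit of the 7, Scn3a, beside 12% of all tested genes. Its difference was −1.29 on the log2 scale (adjusted p = 0.0223).

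The other genes named from the lists that differed in the same test were the partners Gpd1l (2.49, adjusted p = 0.000511) and Gja1 (2.47, adjusted p = 0.00473), the regulators Irx5 (3.06, adjusted p = 0.0121), Irx3 (2.24, adjusted p = 0.0225) and Tbx3 (−1.70, adjusted p = 0.0326), and Slc8a1 (2.14, adjusted p = 0.00365) and Atp1b1 (1.55, adjusted p = 0.0462). In this interaction edgeR called 7 of 20 partners (7 higher, 0 lower), 6 of 11 regulators (5 higher, 1 lower) and 2 of 6 sodium transport genes (2 higher, 0 lower). Of all tested genes it called 12%. DESeq2 and voom called 7 and 7, 7 and 6, and 2 and 2 in these lists, beside 14.5% and 20.7% of all tested genes. The 9 ventricular cardiomyocyte markers had a median of 1.66 in it with 3 called higher. Those of other cells had medians of −1.09 (endothelial, 3 called lower), −1.66 (Schwann cell, 2 lower), −2.07 (adipocyte, 1 lower), 0.57 (atrial, 1 higher and 1 lower), 0.60 (fibroblast, 0 called) and 0.34 (macrophage, 0 called). The part of cell content was not tested.

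The call of Scn3a was lost without HFpEF replicate 1 (−0.98), control 5w replicate 2 (−1.16), control 9w replicate 2 (−1.12) or untreated replicate 3 (−1.25). Irx3 lost its call without control 5w replicate 1 (1.80) or untreated replicate 3 (1.66), and Tbx3 without control 5w replicate 2 or 3 (−1.62 and −1.59), HFpEF replicate 2 (−1.09), control 9w replicate 1 or 2 (−1.59 and −1.55) or untreated replicate 1 (−1.65). Atp1b1 had an adjusted p above 0.05 without any 1 library except HFpEF replicate 3, control 9w replicate 3, untreated replicate 2 and EMPA + PFD replicate 1, up to 0.128 without untreated replicate 1 (1.29). With Eif2s3y presence as a term, estimated from HFpEF alone, Tbx3 (−1.08, adjusted p = 0.0903) and Atp1b1 (1.205, 0.0730) were not called. Without HFpEF replicates 1 and 3, the differences were −0.95 for Scn3a, 2.77 for Irx5 and 1.94 for Irx3. With only the libraries compared, Scn3a (−1.28, adjusted p = 0.0560), Tbx3 (−1.71, 0.0730) and Atp1b1 (1.55, 0.0892) were not called, nor was Tbx3 with a replicate block (−1.64, 0.0583). The untreated libraries lacked counts of Eif2s3y and 1 of the 3 HFpEF libraries had them, and the part of that in these differences cannot be told apart from disease.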

How the results depend on the processing

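Of the 7 subunits, the number called moved under these alternatives. With DESeq2 it was 2 in HFpEF against control 5w (Scn1a and Scn7a), 1 in control 9w against control 5w (Scn7a), 1 in untreated against HFpEF (Scn4b), 1 each in EMPA and PFD against control 9w (Scn1a) and 2 in the interaction (Scn3a and Scn4b). With voom it was, for HFpEF against control 5w, 2; for control 9w against control 5w, 3; for untreated against control 9w and against HFpEF, 1 each; for EMPA, PFD and EMPA + PFD against control 9w, 2, 3 and 2; and for the interaction 4. Of all tested genes, voom called 11%, 21.9%, 8.37%, 8.69%, 3.28%, 8.29%, 15.8% and 20.7% in these 8 contrasts in turn, and DESeq2 10.3%, 15.8%, 3.63%, 1.64%, 3.83% and 14.5% in its 6. With only the libraries compared it was 0 in HFpEF against control 5w (3.87% of all tested genes) and in the interaction (8.98%). It was also 0 in EMPA, PFD and EMPA + PFD against untreated (0.0338%, 0% and 0.0435%). It was 1 in control 9w against control 5w and in EMPA and PFD against control 9w (14.4%, 0.726% and 4.84% of all tested genes). With the adjusted p alone it was 1 in control 9w against control 5w (Scn3a) and 2 in EMPA + PFD against control 9w (Scn1a and Scn4b), beside 34.5% and 33.8% of all. With Eif2s3y presence as a term, estimated from HFpEF alone, it was 0 in HFpEF against control 5w (6.58%). It was 0 as well in EMPA and EMPA + PFD against untreated (0% and 3.46%), and 1 in EMPA against control 9w (0.597%). Upper quartile normalization and a minimum of 10 counts in every library, under which Scn2b had no value, gave 1 (Scn1a) in EMPA (0.42% and 0.464%) and PFD (1.02% and 1.2%) against control 9w. Without HFpEF replicates 1 and 3, HFpEF had 1 library, so only fold changes of that fit are given. Ranges of adjusted p over the alternatives can include it. That of Scn1a in HFpEF against control 5w was −0.90 and that of Scn3a in the interaction −0.95, both short of the minimum fold. Scn7a had 1.58 in control 9w against control 5w, and Scn1a had 1.25 in EMPA and 1.13 in PFD against control 9w. Without HFpEF replicate 1 and untreated replicate 2, chosen after seeing the data, the number called was 2 in the interaction (Scn7a and Scn4b, 17.8%). It was 1 in control 9w against control 5w and in untreated against control 9w and HFpEF (16.3%, 3.82% and 0.849%). EMPA and PFD against control 9w had 1 each (0.963% and 4.37%). In HFpEF against control 5w the number stayed 1 (8.38%), with Scn4b (−1.08, adjusted p = 0.0416) in place of Scn1a (−0.90). RLE normalization and no filter moved none of the counts. The causes were not tested.

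With 1 library left out, the number called ranged from 0 to 3 in HFpEF against control 5w, control 9w against control 5w and the interaction, from 0 to 1 in untreated against control 9w and HFpEF, PFD against untreated, and EMPA, PFD and EMPA + PFD against control 9w, from 1 to 2 in EMPA + PFD against untreated, and was 1 in EMPA against untreated. The share of all tested genes called was 5.9% to 9.95%, 9.76% to 16.4% and 7.08% to 18.2% in the first 3. In untreated it was 0.0566% to 3.35% against control 9w and 0.0325% to 7.56% against HFpEF. In EMPA + PFD it was 0.476% to 7.35% against untreated and 7.86% to 12.8% against control 9w. With EMPA and PFD kept whole, EMPA had 0.0323% to 0.0889% and PFD 0% to 0.0162% against untreated. Against control 9w these were 0.113% to 0.745% and 0.0324% to 3.85%. A group left with 1 library was assumed to vary like the others. The log2 fold change of Scn7a in untreated against control 9w changed sign with voom (−1.41), Eif2s3y presence (−1.80) and without HFpEF replicate 1 and untreated replicate 2 (−1.07), and ranged from −1.07 to 0.43 with 1 library left out. That of Scn3b in PFD against control 9w changed sign with Eif2s3y presence (−0.29). Group means of Scn1a moved by less than 1 SD under RLE, upper quartile and total count scaling.

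As to pairing, replicate numbers are only names: same-numbered libraries of different groups had a median correlation of their deviations of −0.07 (52 pairs) and others 0.04 (102 pairs). A replicate block gave 0 called in EMPA and PFD against untreated, beside 0.00807% and 0% of all tested genes, and changed no other count of subunits. Groups of 2 or 3 libraries, the Eif2s3y and RT1-CE16 differences between groups, and 21 to 47 counts of Scn4a and 0 to 40 of Scn2b limit what can be read.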
